A study of Mus musculus with 2 samples.

Results

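Cancer-associated fibroblasts, the collagen-making stromal cells of the tumour, were taken from 2 single-cell RNA libraries of KPPC mouse pancreatic tumours, 1 from the vehicle group and 1 from the takinib group. A barcode (the tag of 1 droplet, read as 1 cell) counted as a fibroblast if it passed the depth filters (at least 1000 UMIs, at least 500 genes, at most 20% of UMIs from mitochondrial genes) and held at least 10 UMIs of Col1a1, Col1a2 and Col3a1 together and at least 2 of Dcn, Lum and Pdgfra together. A UMI is 1 counted RNA molecule. Cells with more than 1 UMI of the pericyte gene Rgs5, more than 2 of C1qa, C1qb and C1qc, or any of Epcam, Pecam1, Cd79a or Cd3e were left out. The cells were thus chosen by measured UMIs of these genes, whose levels in them are a description. The rule found 762 fibroblasts among 36662 barcodes, 476 of 9872 in vehicle and 286 of 26790 in takinib.

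KPPC is a mouse model of pancreatic cancer; the labels spell out no allele or Cre driver, and both groups carry whatever KPPC stands for. Dosing with takinib (50 mg/kg) or its vehicle lasted 14 days in mice aged 6 weeks. Minced tumour was broken up with DNase-I and collagenase A and strained before cells were captured. Takinib is a small-molecule inhibitor of the kinase TAK1, encoded by Map3k7, which links receptors for interleukin-1, TNF and TGF-beta to NF-kB and AP-1. The number of mice behind each library is not stated. With 1 library per group no test between the groups is possible, and every interval below covers counting error only.

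Fibroblasts of pancreatic tumours are usually sorted into contractile, matrix-rich myofibroblastic cells, inflammatory cells that secrete cytokines and acute-phase proteins, and cells that carry MHC class II, which are thought to derive from the mesothelium. TGF-beta is known to favour the myofibroblastic state, and interleukin-1, acting through NF-kB, the inflammatory one. Pdgfra, the platelet-derived growth factor receptor alpha, is a common marker of the inflammatory state, and Cdkn2a encodes the cell-cycle brakes p16Ink4a and p19Arf.

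The promoters of 3 NF-kB target genes that were at least 2-fold higher in takinib fibroblasts are shown because TAK1 acts upstream of NF-kB and the genes recur below: Cxcl1 and Il6, which encode secreted signals of inflammatory fibroblasts, and Nfkbia, which encodes the NF-kB inhibitor IkB-alpha. Each sequence is from RefSeq (GRCm38.p6) and runs 5′ to 3′ on the gene's strand from 250 bases before the start site to 50 after it. Capitals mark matches to the NF-kB motif, which is GGG, any 2 bases and TTTCC, searched on both strands. The windows are chr5:90890995-90891294 on the plus strand for Cxcl1, chr5:30012864-30013163 on the plus strand for Il6 and chr12:55492598-55492897 on the minus strand for Nfkbia.
Cxcl1: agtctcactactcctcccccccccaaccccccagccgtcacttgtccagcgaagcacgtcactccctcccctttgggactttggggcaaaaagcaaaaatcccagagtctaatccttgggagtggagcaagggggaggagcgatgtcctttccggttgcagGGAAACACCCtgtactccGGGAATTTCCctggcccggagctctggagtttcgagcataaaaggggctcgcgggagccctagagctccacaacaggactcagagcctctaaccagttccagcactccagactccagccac
Il6: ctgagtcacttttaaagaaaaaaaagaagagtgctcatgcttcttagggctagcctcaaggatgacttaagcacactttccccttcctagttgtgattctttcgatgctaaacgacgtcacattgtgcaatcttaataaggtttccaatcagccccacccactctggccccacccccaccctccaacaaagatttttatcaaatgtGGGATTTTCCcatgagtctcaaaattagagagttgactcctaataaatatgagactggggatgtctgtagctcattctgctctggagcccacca
Nfkbia: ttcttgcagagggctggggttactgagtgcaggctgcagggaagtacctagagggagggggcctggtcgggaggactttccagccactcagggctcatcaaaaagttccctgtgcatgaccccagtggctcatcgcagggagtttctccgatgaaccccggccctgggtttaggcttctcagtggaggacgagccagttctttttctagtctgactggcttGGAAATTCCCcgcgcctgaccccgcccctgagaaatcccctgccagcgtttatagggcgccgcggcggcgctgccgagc
The Cxcl1 window held 2 matches, whose first bases lie 89 and 71 bases before the start, the former on the opposite strand. The Il6 match begins 44 bases before the start, and the Nfkbia match, on the opposite strand, 29 bases before it. Of all 32851 promoters of this length, 535 (1.63%) held the motif. Counted instead by gene, with a match in any of its promoters, 6 of the 12 NF-kB target genes with an entry held it. So did 3 of the 18 inflammatory fibroblast genes, namely Cxcl1, Cxcl2 and Il6, which are also among the 6. A match describes letters in the window and is not a measured binding site.

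Fibroblasts made up 4.82% of the barcodes past the filters in vehicle (exact binomial 95% interval 4.41 to 5.26) and 1.07% in takinib (0.948 to 1.20), a log2 ratio of shares of -2.18 (-2.47 to -1.88). The share rests on what else each library held: barcodes of the neutrophil class (at least 20 UMIs of S100a8 and S100a9 and 1 of Csf3r or Cxcr2) numbered 92 in vehicle and 9147 in takinib. Among barcodes without the leukocyte gene Ptprc the shares were 8.44% and 2.56%, a log2 ratio of -1.72. With at least 2000 UMIs and 1000 genes required they were 5.05% and 1.85%, and with every barcode drawn down to 1000 UMIs before the rule was applied they were 3.84% and 0.564%. Fibroblasts were the smaller share of the takinib library in each case, and fewer fibroblasts cannot be told apart from more of other cells. The collagen edge of the rule was thinly filled: 24 vehicle and 16 takinib fibroblasts held only 10 to 12 collagen UMIs, and 10 and 11 otherwise similar cells held 7 to 9. At the other edge, 12 vehicle and 8 takinib fibroblasts held 2 UMIs of Dcn, Lum and Pdgfra. Just outside it, 13 and 8 otherwise similar cells held 1 such UMI and 37 and 16 held 0.

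The defining genes were checked first. The 10 fibroblast markers together stood at 37512 CPM (a gene's UMIs scaled to a library sum of 1000000) in vehicle and 20999 in takinib fibroblasts, against 7419 and 10670 in the perivascular class (at least 2 UMIs of Rgs5) and at most 859 in the endothelial, epithelial and macrophage classes of either library. None of the 10 was at 0. Perivascular markers summed to 174 CPM in vehicle and 143 in takinib, and endothelial markers to 64.5 and 39.0. Several of these genes, among them Col1a1, Dcn, Rgs5 and Pecam1, were used in the rule, so these sums are a description. Mesothelial markers summed to 502 and 460 CPM, and none of the 8 was at 0 in either library. After each cell was drawn to 1000 UMIs, a mesothelial UMI was found in 15.5% of vehicle (12.4 to 19.1) and 29.4% of takinib fibroblasts (24.2 to 35.0).

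RNA of other cells differed between the libraries. The sum of 10 neutrophil markers was 258 CPM among the fibroblasts of vehicle and 13209 among those of takinib, and at 1000 UMIs a cell S100a8 or S100a9 was found in 4.62% of the former and 64.7% of the latter. The pan-leukocyte gene Ptprc was found in 5.46% and 9.09%. Acinar markers were higher in vehicle, at 167 and 5.41 CPM. The erythroid sum was 4.09 CPM in vehicle and 1721 in takinib, where 98.0% of the Hbb-bs UMIs sat in 5 cells. Depth differed too: the median was 3306.5 UMIs and 1585.5 genes a fibroblast in vehicle, and 8880.5 UMIs and 2851.5 genes in takinib, with a median mitochondrial share of 7.26% and 2.04%. The part that depth and neutrophil RNA had in each difference below was not tested unless a value is given for it. No fibroblast barcode was shared between the libraries, although 400 barcodes past the filters were.

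Sex-linked transcripts showed a further difference between the libraries. In vehicle 87 fibroblasts held Xist and no Y-linked UMI, 169 held Y-linked UMIs and no Xist, 13 held both and 207 neither, so the library held cells of animals of both sexes. In takinib 264 held Xist, none held a Y-linked UMI and 22 held neither. The takinib fibroblasts are therefore also compared below with the vehicle cells of female and of male origin taken separately for some lists. Of 2823 genes compared between the female and the male vehicle fibroblasts, 22 (0.779%) were at least 2-fold higher and 46 (1.63%) at least 2-fold lower in the former. Igf2, an imprinted growth factor gene, was at 220 CPM in the female and 6.78 CPM in the male cells.

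Takinib fibroblasts had less RNA for collagens and other matrix proteins than vehicle fibroblasts and more for genes of the NF-kB, immediate-early, hypoxia and cell-cycle lists and for part of the inflammatory list. Takinib neutrophils held a number of these genes at a higher level than the fibroblasts. The contractile list had a median of -0.61. UMIs were summed over the fibroblasts of each library and compared as log2 of (CPM + 10) in takinib over (CPM + 10) in vehicle, for 7472 genes with at least 50 summed UMIs in either library. Of these, 414 (5.54%) were at least 2-fold higher and 521 (6.97%) at least 2-fold lower in takinib, with a median over all genes of -0.06. With every cell drawn to 1000 UMIs, which left 1495 genes to compare, 104 were higher and 209 lower. These shares are the background for the gene lists that follow, which are described by counts and medians. A gene low in 1 library could enter through the other alone, so these counts and medians are a description.

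**Figure D1:**
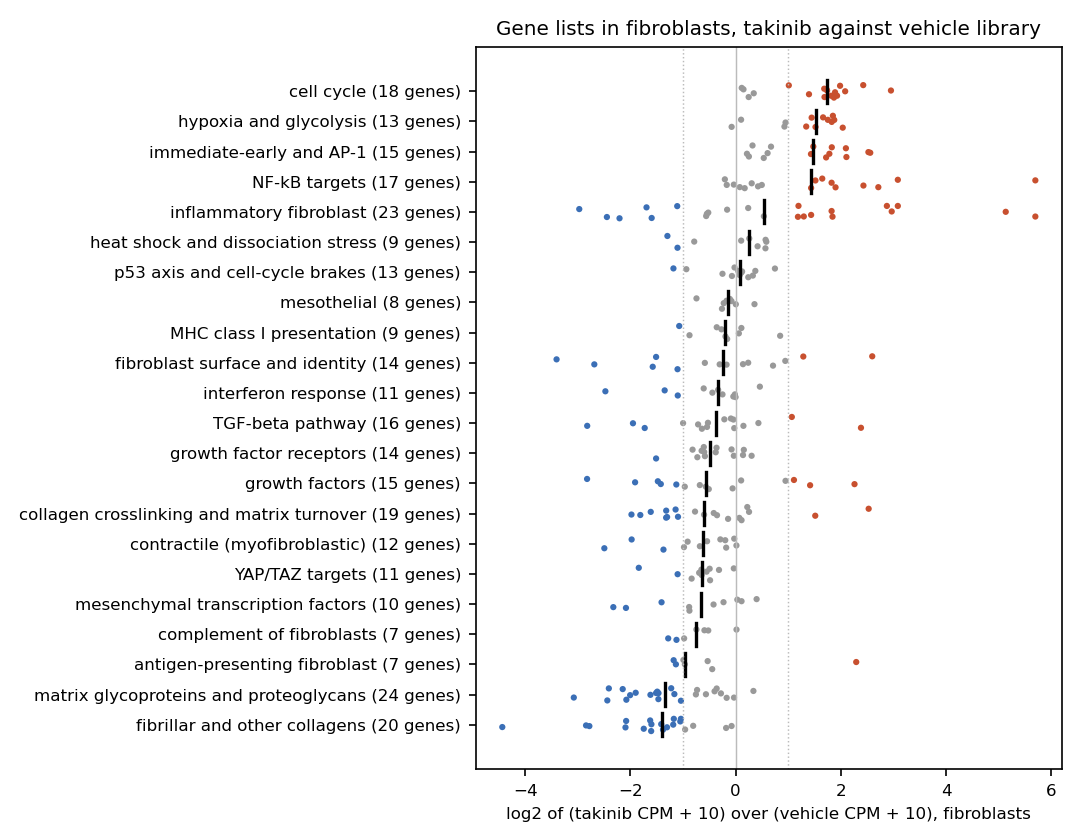
Each point is 1 gene of the list named on the left, placed by log2 of (takinib CPM + 10) over (vehicle CPM + 10) in fibroblasts; black bars are list medians, dotted lines mark 2-fold, and red and blue points are at least 2-fold higher or lower in takinib. Collagens and matrix proteins lie to the left with medians of -1.40 and -1.35, and cell-cycle and hypoxia genes to the right with medians of 1.73 and 1.52.

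Of 20 collagen genes compared, 16 were at least 2-fold lower in takinib and none higher, with a median of -1.40 that ranged from -1.51 to -1.11 over the alternative settings. Col1a1, Col1a2 and Col3a1 served in the selection rule, so their levels are a description. Col1a1, a chain of type I collagen, stood at 10792 CPM in vehicle and 4736 in takinib (log2 -1.19, limits -1.23 to -1.14). Col8a1, a short-chain collagen, was the lowest at 1188 against 45.4 CPM (-4.44), and it was found in 274 of 476 vehicle and 41 of 286 takinib fibroblasts. Col12a1, a collagen that decorates fibrils and is abundant in fibrotic stroma, stood at 1922 and 259 CPM (-2.84). Col15a1, of the basement membrane zone, stood at 855 and 116 CPM (-2.78). Col5a3 was the exception with 164 and 155 CPM (-0.08, limits -0.35 to 0.19).

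Among 24 matrix glycoproteins and proteoglycans 15 were at least 2-fold lower and none higher. The median was -1.35 against all vehicle fibroblasts, -1.10 against those of male origin and -0.62 against those of female origin. Postn, the matricellular protein periostin, was at 885 and 96.1 CPM (-3.08), and it was found in 265 vehicle and 57 takinib cells. Elastin (Eln) was at 687 and 121 CPM (-2.41) and the proteoglycan biglycan (Bgn) at 3060 and 1067 CPM (-1.51). Individual genes of the list differed. Sparc, a collagen-binding protein, was at 7256 and 5650 CPM (-0.36), and Dcn, the proteoglycan decorin, at 4282 and 5416 CPM (0.34), while Lum, another small proteoglycan, was at 785 and 278 CPM (-1.47). Dcn and Lum also served in the rule.

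Enzymes that process the matrix split in both directions, with 8 of 19 at least 2-fold lower and 2 higher (median -0.60). Mmp2, a gelatinase, was at 1162 and 287 CPM (-1.98), and Loxl1, which crosslinks elastin, at 781 and 215 CPM (-1.81). The collagen crosslinker Lox was nearly level at 439 and 462 CPM (0.07, limits -0.10 to 0.24). Timp1, an inhibitor of matrix metalloproteinases, was higher in takinib at 1862 against 5335 CPM (1.51), but 1 vehicle cell held 30.9% of that library's Timp1 UMIs. The Timp1 ratio was 0.25 among fibroblasts without a mesothelial UMI (329 and 94 cells). Mmp3, stromelysin, was at 33.3 and 240 CPM (2.53), and 1 takinib cell held 52.4% of its UMIs.

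The contractile list was lower in 3 of 12 genes and higher in none, with a median of -0.61. Mylk, the myosin light chain kinase, was at 309 and 46.6 CPM (-2.50) and Myh11, smooth muscle myosin, at 50.7 and 5.41 CPM (-1.98). Acta2, the smooth muscle actin used to define myofibroblasts, was level at 544 and 534 CPM (-0.03, limits -0.18 to 0.13), and Tagln, transgelin, was at 835 and 439 CPM (-0.91). Against vehicle fibroblasts of female origin the contractile median was 0.01, and against those of male origin -0.59. A lower contractile level in takinib thus rested on which vehicle cells were compared, while the collagen medians were -1.51 and -1.18 against the same cells.

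Inflammatory fibroblast genes parted into 11 at least 2-fold higher and 6 at least 2-fold lower of 23 compared (median 0.54). Some of the 11 passed the count minimum through takinib alone, such as Cxcl5 with 24 vehicle UMIs and Cxcl1 with 41. These counts and this median are therefore a description. The median fell to -0.05 with every cell drawn to 1000 UMIs and was 1.18 for genes with at least 200 UMIs. Chemokines and cytokines made up most of the higher side. Cxcl5, a neutrophil attractant, stood at 12.3 CPM in vehicle and 773 in takinib (5.13, limits 4.74 to 5.51), in 109 takinib fibroblasts, and takinib neutrophils held 6.33 CPM of it. Cxcl12, which retains leukocytes through the receptor CXCR4, was at 140 and 528 CPM (1.84, limits 1.61 to 2.07), with 2.88 CPM in takinib neutrophils. With each cell drawn to 1000 UMIs it was found in 12.2% of vehicle and 27.3% of takinib fibroblasts, against 0.0822% and 0.172% of macrophages, whose median depths were 3912.5 and 6557.5 UMIs. Il6 was at 21.5 and 102 CPM (1.82) and was found in 17 and 53 fibroblasts.

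Saa3, an acute-phase serum amyloid gene, was at 1838 CPM in vehicle and 14440 in takinib fibroblasts (2.97), and in 100 and 275 cells. Takinib neutrophils held 20456 CPM of Saa3 and takinib macrophages 16749, so the fibroblast level was below both. Cxcl2 likewise was at 58.8 and 3564 CPM (5.70) in fibroblasts and 23456 in takinib neutrophils. Both genes were therefore high in the cells whose RNA was widespread in that library. On the lower side were Cxcl14, a chemokine of resting stroma, at 561 and 62.8 CPM (-2.97), Pi16, a marker of adventitial fibroblasts, at 222 and 40.3 CPM (-2.21), and Clec3b, tetranectin, at 242 and 67.9 CPM (-1.69). The complement factor C3, often used as an inflammatory marker, was at 3117 and 2170 CPM (-0.52).

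**Figure D2:**
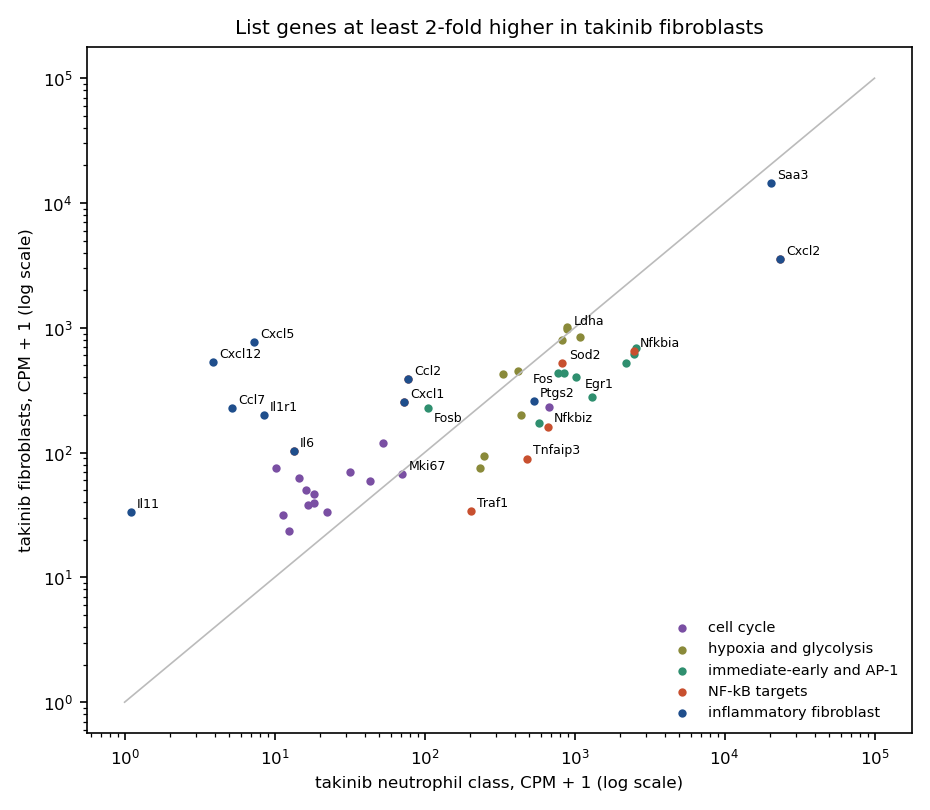
Each point is a gene of 5 lists that was at least 2-fold higher in takinib than in vehicle fibroblasts, with its level (CPM + 1, log scales) in takinib neutrophils on the horizontal axis and in takinib fibroblasts on the vertical axis; the line marks equal levels. Cxcl5, Cxcl12, Il6 and most cell-cycle genes lie above the line, and Cxcl2, Saa3, Nfkbia and most immediate-early genes lie below it.

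Of 17 NF-kB target genes 9 were at least 2-fold higher in takinib and none lower, with a median of 1.44. Nfkbia was at 91.1 and 653 CPM (2.71), Sod2, mitochondrial superoxide dismutase, at 88.5 and 521 CPM (2.43), and Tnfaip3, the feedback inhibitor A20, at 21.5 and 88.6 CPM (1.65). Only 3 of the 9 (Cxcl1, Il6 and Ccl2, all shared with the inflammatory list) were higher in takinib fibroblasts than in takinib neutrophils. The median was 0.80 after the neutrophil profile was subtracted from the takinib sum, which removed 9.98% of its UMIs. It was 0.64 in fibroblasts without Ptprc and with at most 5 UMIs of S100a8 and S100a9 (408 and 119 cells). Nfkb1 itself was at 90.04 and 79.0 CPM (-0.17) and the adhesion gene Icam1 at 60.4 and 51.1 CPM (-0.20).

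Immediate-early genes, which respond to stimuli and to tissue dissociation within minutes, followed the same course, with 9 of 15 at least 2-fold higher and none lower (median 1.48, lowest over the settings 0.68). Fos was at 65.5 and 435 CPM (2.56) and Egr1 at 105 and 400 CPM (1.83), and takinib neutrophils held 843 and 1029 CPM. Of the 9, Fosb was above the takinib neutrophil level, at 227 against 104 CPM. Of 9 heat shock genes none was at least 2-fold higher and 2 were lower, with a median of 0.26 (0.57 against the female-origin and 0.06 against the male-origin vehicle cells). Of the TAK1 complex itself, Map3k7 was at 39.4 and 27.0 CPM (-0.42, limits -0.90 to 0.07) and Tab2, its ubiquitin-binding partner, at 65.0 and 74.8 CPM (0.18). Takinib acts on the kinase and not on its transcript, so these levels do not check the treatment.

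TGF-beta pathway genes were mixed, with 2 of 16 at least 2-fold higher, 3 lower and a median of -0.37 (-1.12 at 1000 UMIs a cell). Ltbp2, a latent TGF-beta binding protein, was at 292 and 32.7 CPM (-2.82), the ligand Tgfb3 at 179 and 38.8 CPM (-1.95) and the receptor Tgfbr2 at 465 and 133 CPM (-1.73). Tgfbi, a secreted protein induced by TGF-beta, was on the higher side at 49.6 and 115 CPM (1.07). The YAP target Ccn2, connective tissue growth factor, was at 499 and 132 CPM (-1.84), and 2 of 11 YAP targets were at least 2-fold lower (median -0.65). Hedgehog signalling, which runs from tumour epithelium to stroma, was represented by 4 genes, of which Ptch1 (61.4 and 21.6 CPM, -1.17) and Gli2 (34.3 and 8.71 CPM, -1.24) were lower.

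Secreted growth factors also parted, with 3 of 15 at least 2-fold higher and 5 lower (median -0.57, and 0.12 among cells without a mesothelial UMI). Against the female-origin vehicle cells the median was -0.21, with 3 of 11 higher and 2 lower. Against the male-origin cells it was 0.004, with 4 of 12 higher and 3 lower. Over all genes, 523 of 7180 were higher and 469 lower against the female-origin cells, and 440 and 370 of 7208 against the male-origin cells. The ligand Wnt2 was at 144 and 11.7 CPM (-2.82) and the ligand Bmp4 at 60.4 and 8.71 CPM (-1.91). Cxcl13, the B-cell attractant, was at 188 and 937 CPM (2.26), in 25 vehicle and 69 takinib cells. The BMP antagonist Grem1 was at 16.4 and 60.4 CPM (1.42). Among receptors Pdgfrb was at 216 and 69.4 CPM (-1.51), whereas Pdgfra was level at 252 and 278 CPM (0.14, limits -0.07 to 0.36), as a gene of the selection rule. Of 14 receptor genes Pdgfrb was the 1 past 2-fold.

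Of 14 surface and identity genes 5 were at least 2-fold lower and 2 higher (median -0.24). Thy1, a glycoprotein of fibroblasts and pericytes, was at 1155 and 100 CPM (-3.40), in 322 vehicle and 99 takinib cells. Thy1 was found at 1000 UMIs a cell in 48.7% and 12.9% of fibroblasts and in 0.987% and 0.172% of macrophages. Fap, the fibroblast activation protein, was at 54.7 and 11.7 CPM (-1.58). Vim, vimentin, was at 1135 and 2194 CPM (0.94), and S100a4 at 34.8 and 261 CPM (2.60), a gene that takinib macrophages held at 411 CPM. Of 10 mesenchymal transcription factors 3 were at least 2-fold lower and none higher (median -0.65), with Tcf21, a factor of resident fibroblasts, at 50.7 and 2.103 CPM (-2.33) and Tcf4 at 421 and 91.6 CPM (-2.08).

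Glycolytic and hypoxia genes were higher in 9 of 13 and lower in none, with a median of 1.52 (1.25 to 1.73 over the settings). Enolase (Eno1) was at 241 and 1022 CPM (2.04), Pgk1, phosphoglycerate kinase, at 118 and 450 CPM (1.85), and Ldha, lactate dehydrogenase, at 282 and 974 CPM (1.75). These 3 and Tpi1 were also above their level in takinib neutrophils (890 CPM for Eno1, 416 for Pgk1 and 893 for Ldha), and the other 5 of the 9 were below it. The hypoxia-induced growth factor Vegfa was at 48.1 and 102 CPM (0.95).

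Of 18 cell-cycle genes 14 were at least 2-fold higher and none lower (median 1.73, lowest 0.78 with a pseudocount of 50 CPM). Most of the 14 had few vehicle UMIs, such as 13 for Ube2c and 18 for Mki67, and passed the minimum of 50 through takinib alone, so this count and median are a description. Ube2c, of the anaphase-promoting complex pathway, was at 6.65 and 119 CPM (2.95), and 5 of its 36 positive takinib cells held 68.2% of its UMIs. The proliferation marker Mki67 was at 9.21 and 66.1 CPM (1.99) and was found in 17 vehicle and 47 takinib fibroblasts, and at 1000 UMIs a cell in 1.05% and 3.50%. The replication genes Pcna (53.7 and 60.7 CPM, 0.15) and Mcm6 (0.12) were level. Among the cell-cycle brakes Cdkn2b, p15Ink4b, was at 118 and 46.3 CPM (-1.18) and Cdkn2a at 206 and 160 CPM (-0.34, limits -0.59 to -0.09), and the p53 target Cdkn1a was at 209 and 199 CPM.

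Genes of antigen presentation and complement were lower or level. The class II invariant chain Cd74 was at 721 and 313 CPM (-1.18) and H2-Ab1, a class II chain, at 208 and 102 CPM (-0.97), but among fibroblasts without a mesothelial UMI the Cd74 ratio was 0.05 and the list median moved from -0.97 to 0.27. Slpi, a protease inhibitor in the same list, was at 1069 and 5276 CPM (2.29), with 3876 CPM in takinib neutrophils. In near-empty vehicle barcodes of at most 100 UMIs Cd74 stood at 2770 CPM and H2-Ab1 at 904, above the vehicle fibroblasts. The takinib matrix held no barcode under 500 UMIs, and the part that free RNA had in the class II levels was not tested. Of 9 MHC class I genes 1 was at least 2-fold lower and none higher (median -0.19). Of 7 complement genes 2 were at least 2-fold lower and none higher (median -0.75), with C4b at 707 and 285 CPM (-1.28). Of 11 interferon genes 3 were lower, among them Cxcl9 at 50.7 and 0.90 CPM (-2.48). Against the male-origin vehicle cells none of 10 was lower (median -0.22) and against the female-origin cells 1 of 10 (median 0.15). Cxcl9 was not among those 10. Over all genes, 370 of 7208 were lower against the male-origin and 469 of 7180 against the female-origin cells.

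The 12 genes furthest up in takinib, among those at least as high in takinib fibroblasts as in takinib neutrophils, macrophages and epithelium, were often the property of few cells. Serpinb2, a serine protease inhibitor, had 22 UMIs in 2 vehicle cells and 3946 in 87 takinib cells (11.3 and 1185 CPM, 5.81), and its ratio was 2.92 among fibroblasts without a mesothelial UMI. Ctla2a, a cysteine protease inhibitor, was broader, at 366 and 3559 CPM (3.25) with 164 takinib cells. Crabp2, a retinoic acid carrier, was at 6.65 and 198 CPM (3.64) with 63 takinib cells. By contrast Sprr2e, a cornified-envelope gene, had 505 UMIs in 14 takinib cells, 96.4% of them in 5, and none in vehicle, which makes it at least 98.8-fold higher against a floor of 3 UMIs in the vehicle sum. U90926 had 666 UMIs in 16 takinib cells (94.1% in 5) and was at least 130.3-fold higher, Prl2c2 had 392 in 8 and was at least 76.7-fold higher, and Sprr2d had 173 in 3 and was at least 33.9-fold higher. Clca3a2 was at 1 and 171 UMIs in all. Cxcl5, Cxcl1, Ube2c and Mmp3 completed the 12.

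The 12 genes furthest down were spread over more cells, each found in 70 to 322 vehicle fibroblasts with at most 12.9% of its UMIs in 1 cell. Igfbp3, an insulin-like growth factor binding protein, was at 3497 and 127 CPM (-4.68) and was found in 317 vehicle and 86 takinib cells. Col8a1 followed, then the microfibril gene Fbn2 at 687 and 30.04 CPM (-4.12) and the protease inhibitor Serpine2 at 976 and 48.1 CPM (-4.09). Penk, proenkephalin, was at 992 and 86.5 CPM (-3.38), and the proteoglycan Prelp at 373 and 34.5 CPM (-3.11). Nkd2, Cpxm2, Thbs4, Igfbp2 and Thy1 were also among the 12, between -3.98 and -3.19. Vehicle perivascular cells held more Serpine2 and Thy1 than vehicle fibroblasts, at 2371 and 1566 CPM. Each of the 12 stayed below -2.004 under every alternative setting tried.

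Sums per cell were also taken at equal depth. With each cell drawn to 1000 UMIs the median fibroblast held 32.5 collagen UMIs in vehicle and 14 in takinib, and 4 against 18 UMIs of inflammatory genes. The collagen sum includes Col1a1, Col1a2 and Col3a1, whose UMIs served in the selection rule before the draw. The takinib cells were deeper, so they could pass that rule with a smaller collagen share. These collagen medians are therefore a description. Saa3 and Cxcl2, both also high in takinib neutrophils, had the highest takinib levels of the inflammatory list, whose median over genes at 1000 UMIs a cell was -0.05. The contractile median was 3 and 2 UMIs. Across cells the contractile and inflammatory sums had a Spearman rho of -0.37 over 476 vehicle fibroblasts and -0.16 over 286 takinib fibroblasts, and the collagen and contractile sums had 0.30 and 0.21. These correlations share library and depth and describe the cells only.

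Pdgfra was found in 240 of 476 vehicle fibroblasts (50.4%, exact interval 45.8 to 55.002) and in 219 of 286 takinib fibroblasts (76.6%, 71.2 to 81.4). At 1000 UMIs a cell the shares were 22.5% (18.8 to 26.5) and 25.2% (20.2 to 30.6), whose intervals overlap. Vehicle perivascular cells, with a median of 3105 UMIs, held it in 1.12% of cells. The gene lies at chr5:75152292-75198215 on the plus strand (mm10) and Cdkn2a at chr4:89274471-89294653 on the minus strand. Since Pdgfra also served in the selection rule, a cell with Pdgfra needed fewer UMIs of Dcn and Lum to enter.

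**Figure D3:**
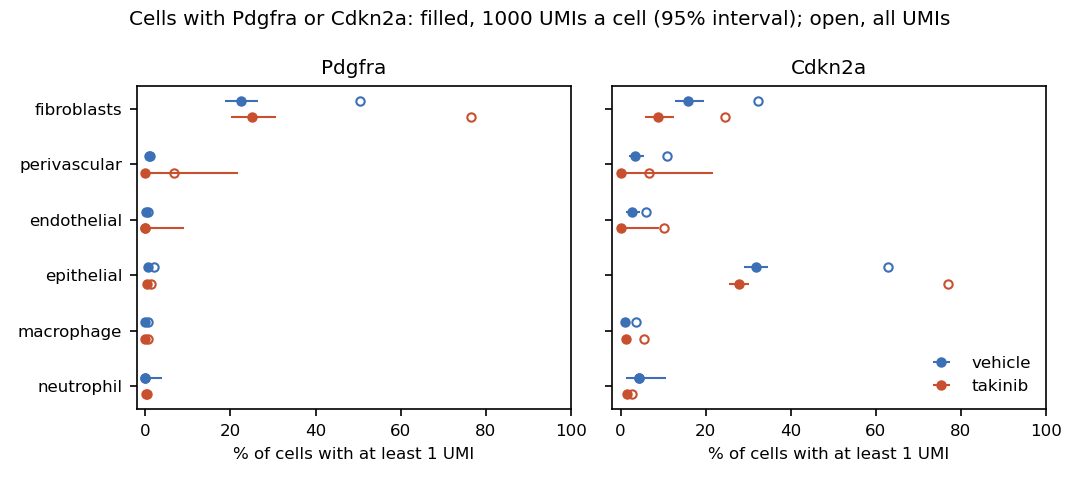
Share of cells with at least 1 UMI of Pdgfra (left) and Cdkn2a (right) in fibroblasts and 5 other classes; filled points and 95% exact binomial intervals are at 1000 UMIs a cell, open points use all UMIs. Pdgfra stands out in fibroblasts of both libraries at 22.5% and 25.2%, while Cdkn2a is most frequent in epithelial cells at 31.8% and 27.8% and next in fibroblasts at 15.97% and 8.74%.

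Fibroblasts with and without a Pdgfra UMI differed little in vehicle. A cell without such a UMI may still express the gene, so the split does not separate expressing from non-expressing cells. Cells with Pdgfra were deeper before the draw, with a median of 3882.5 against 2855 UMIs in vehicle and 9206 against 6304 in takinib. After each cell was drawn to 1000 UMIs, 33 of 2570 genes (1.28%) were at least 2-fold higher and 23 (0.895%) at least 2-fold lower in cells with Pdgfra, and the counting limits of 13 and 10 of them lay on 1 side of 0. Every list median with at least 5 genes compared lay between -0.24 and 0.32. Col1a1 (-0.06), Dcn (-0.10), Lum (-0.01) and Acta2 (-0.02) were level. In takinib 63 of 1449 genes (4.35%) were higher and 26 (1.79%) lower. There the medians with at least 5 genes compared ran from -0.49 for TGF-beta genes and -0.47 for contractile genes to 0.36 for NF-kB targets, and that of the inflammatory list was 0.29.

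Genes on the higher side included secreted signals. Cxcl13 was at 313 CPM with and 114 without Pdgfra in vehicle (log2 1.37, limits 0.54 to 2.23) and at 1598 and 567 CPM in takinib (1.48, 0.87 to 2.12). Calca, the calcitonin gene, was at 238 and 38.1 CPM in vehicle (2.36) and 361 and 149 CPM in takinib (1.22), but 1 cell held 35.3% of the vehicle fibroblasts' Calca UMIs. These 2 were the genes past 2-fold upward in both libraries, of 13 higher in vehicle among 1350 genes compared in both. Of all 1350, 50 were past 2-fold upward in takinib. Saa3 was at 2288 and 665 CPM in vehicle (1.77) and 14041 and 8627 CPM in takinib (0.70), and Cxcl12 at 279 and 165 CPM (0.72) and at 900 and 403 CPM (1.14). The interleukin-1 receptor Il1r1 had 60 UMIs with and none without Pdgfra in takinib, yet 87.5 and 67.8 CPM in vehicle (0.33).

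On the lower side Igf2 was at 37.5 and 161 CPM in vehicle (-1.85) and 86.8 and 239 CPM in takinib (-1.36). The takinib Igf2 values rest on 19 and 16 UMIs (limits -2.68 to -0.01). Arginase (Arg1) was at 37.5 and 93.2 CPM in vehicle (-1.12) and 82.2 and 179 CPM in takinib (-1.04). The female-origin share of typed vehicle cells was 33.6% with and 34.5% without Pdgfra, and 207 of 476 vehicle fibroblasts held neither kind of sex-linked transcript. Igf2 was higher in the female cells, and the part that origin had in this split was not tested. In takinib Cd74 was at 233 and 761 CPM (-1.67), against 792 and 686 in vehicle (0.20). Haemoglobin was uneven: Hbb-bs stood at 2196 CPM with and 59.7 without Pdgfra in takinib. With at least 100 UMIs required of a gene, 3 of 649 genes remained higher and 1 lower in vehicle, so few of the differences had much behind them.

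Cdkn2a was found in 154 of 476 vehicle fibroblasts (32.4%, 28.2 to 36.8) and 70 of 286 takinib fibroblasts (24.5%, 19.6 to 29.9). At 1000 UMIs a cell the shares were 15.97% and 8.74%. Of the comparison classes, macrophages held it in 3.70% (median 3912.5 UMIs) and 5.45% (6557.5 UMIs) of cells, and vehicle perivascular cells, of nearly the fibroblasts' depth, in 10.96%, or 3.36% at 1000 UMIs. Epithelial cells held it in 62.8% and 77.1%. In near-empty vehicle barcodes of at most 100 UMIs, Cdkn2a stood at 107 CPM against 206 CPM in vehicle fibroblasts. The part that free RNA had in the split was not tested. RefSeq gives Cdkn2a 2 start sites 12427 bases apart, and the counts do not separate p16Ink4a from p19Arf.

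Vehicle fibroblasts with Cdkn2a carried more RNA of several collagens, Igf2, H19 and other cell-cycle brakes than those without. They carried less of most inflammatory genes compared, class II genes and some complement genes. Near-empty vehicle barcodes held more class II RNA than the fibroblasts, such as Cd74 at 2770 against 721 CPM. The part that free RNA had in the class II difference was not tested. At 1000 UMIs a cell 79 of 2570 genes (3.07%) were at least 2-fold higher and 138 (5.37%) lower with Cdkn2a in vehicle, and 48 of 1449 (3.31%) and 77 (5.31%) in takinib. The counting limits lay on 1 side of 0 for 56 of the 79 and 79 of the 138 in vehicle, and for 24 and 24 in takinib. Cells with Cdkn2a were deeper before the draw, with a median of 4076.5 against 2982 UMIs in vehicle and 10789.5 against 8355.5 in takinib. As for Pdgfra, a cell without a Cdkn2a UMI may still express the gene. The female-origin share was 36.8% and 32.3% of typed vehicle cells.

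**Figure D4:**
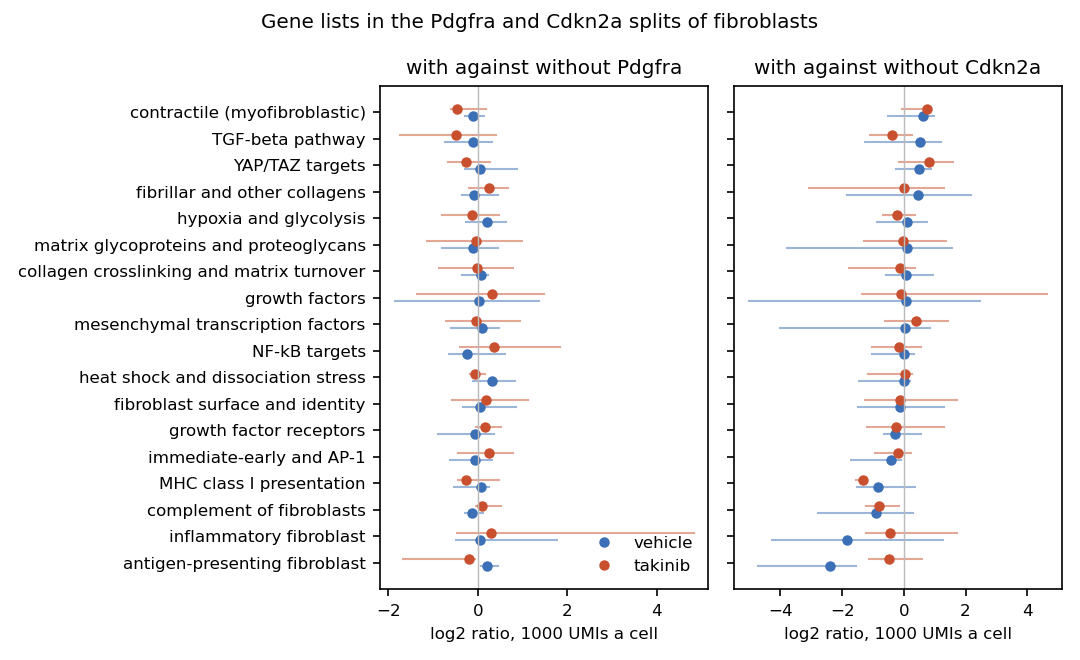
Gene lists compared between fibroblasts with and without Pdgfra (left) and with and without Cdkn2a (right) at 1000 UMIs a cell; points are list medians of the log2 ratio, bars run from the lowest to the highest gene, blue is vehicle and red takinib. The vehicle Pdgfra medians of the lists drawn lie between -0.24 and 0.32. The Cdkn2a medians of the inflammatory and antigen-presenting lists reach -1.84 and -2.41 in vehicle. Lists with few genes compared are not drawn.

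Other brakes on the cell cycle were higher with Cdkn2a in vehicle. Of 8 genes in that list 3 were at least 2-fold higher and none lower (median 0.91). Cdkn2b, the neighbour of Cdkn2a, was at 201 CPM with and 46.6 without (1.90, limits 0.76 to 3.04), and Cdkn1a, p21, at 357 and 96.3 CPM (1.79). In takinib Cdkn1a was at 200 and 157 CPM (0.33, limits -0.95 to 1.54).

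The imprinted genes Igf2 and H19, which neighbour each other and are strongly expressed in the embryo, were higher with Cdkn2a in both libraries. H19 was at 494 and 165 CPM in vehicle (1.53) and 386 and 60.2 CPM in takinib (2.50, limits 1.23 to 3.76). Igf2 was at 234 and 34.2 CPM in vehicle (2.46) and had 33 and 2 UMIs in takinib (4.64), where it was found in 5 fibroblasts in all. Igfbp3 was at 5468 and 1863 CPM (1.55) and at 514 and 97.2 CPM (2.29), and Col12a1 at 2896 and 1227 CPM (1.23) and at 800 and 319 CPM (1.30). These 4 were the genes past 2-fold upward in both libraries, of 16 higher in vehicle among the 1350 compared in both. Of the 16, 13 had the same sign in takinib. Of all 1350, 46 were past 2-fold upward in takinib, and 711 of the 1449 compared in takinib were above 0.

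Among matrix genes higher with Cdkn2a in vehicle, Col11a1, a minor fibrillar collagen, was at 286 and 55.9 CPM (2.17), Thbs2, thrombospondin 2, at 831 and 273 CPM (1.57), Fbn2 at 1208 and 388 CPM (1.61) and Thy1 at 2201 and 885 CPM (1.30). The collagen median was 0.47 in vehicle (4 of 19 higher, 2 lower) and 0.01 in takinib. Of 23 matrix glycoproteins and proteoglycans 2 were at least 2-fold higher and 5 lower in vehicle (median 0.09), with Tnxb, tenascin-X, at -3.80, and of 15 crosslinking and turnover genes none was past 2-fold (median 0.06). The contractile median was 0.63 in vehicle and 0.77 in takinib, with no gene past 2-fold of 10 and 7. Tagln was at 753 and 376 CPM in vehicle (0.98) and Acta2 at 383 and 339 CPM (0.17). Dcn was on the opposite side, at 2403 and 5596 CPM in vehicle (-1.22) and 4857 and 7241 CPM in takinib (-0.58).

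The inflammatory list was 2-fold lower with Cdkn2a in 8 of 14 genes and higher in 1, with a median of -1.84 in vehicle (-2.77 to -0.86 over the settings). In takinib the median was -0.46, with 1 gene lower and 1 higher. Saa3 was at 182 and 2106 CPM in vehicle (-3.46) and 9400 and 13866 CPM in takinib (-0.56). Clec3b was at 19.5 and 562 CPM in vehicle (-4.28), and Cxcl12 at 58.4 and 301 CPM (-2.19). The chemokine Cxcl14 was the 1 gene of the list at least 2-fold higher in vehicle, at 877 and 354 CPM (1.28). Cxcl13 had no UMI with Cdkn2a against 102 without in vehicle, at least 16.3-fold lower, and was at 614 and 1597 CPM in takinib (-1.36).

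MHC class I and complement genes had medians below 0 with Cdkn2a in both libraries. All 5 genes compared of the antigen-presenting list were at least 2-fold lower in vehicle (median -2.41), among them Slpi at 26.0 and 947 CPM (-4.73) and Cd74 at 182 and 1006 CPM (-2.41). In takinib 1 of 3 was lower (median -0.49, and -1.25 to 0.30 over the settings). The MHC class I median was -0.84 in vehicle (2 of 6 lower) and -1.33 in takinib (5 of 5 lower), with H2-K1 at 325 and 835 CPM in vehicle (-1.34) and 286 and 731 CPM in takinib (-1.33). B2m, the light chain of class I, was at 662 and 1239 CPM (-0.89) and 400 and 940 CPM (-1.21). The complement median was -0.91 in vehicle and -0.81 in takinib, with C3 at 571 and 4019 CPM (-2.79) and at 1600 and 3722 CPM (-1.21). Of 71 genes at least 2-fold lower in vehicle and compared in both libraries, 56 had the same sign in takinib. Of the 71, 16 were also past 2-fold in takinib, C3, H2-K1, H2-D1, Slpi and Cxcl13 among them. Of all 1350 genes compared in both, 58 were at least 2-fold lower in takinib, and 738 of the 1449 compared in takinib were below 0.

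**Figure D5:**
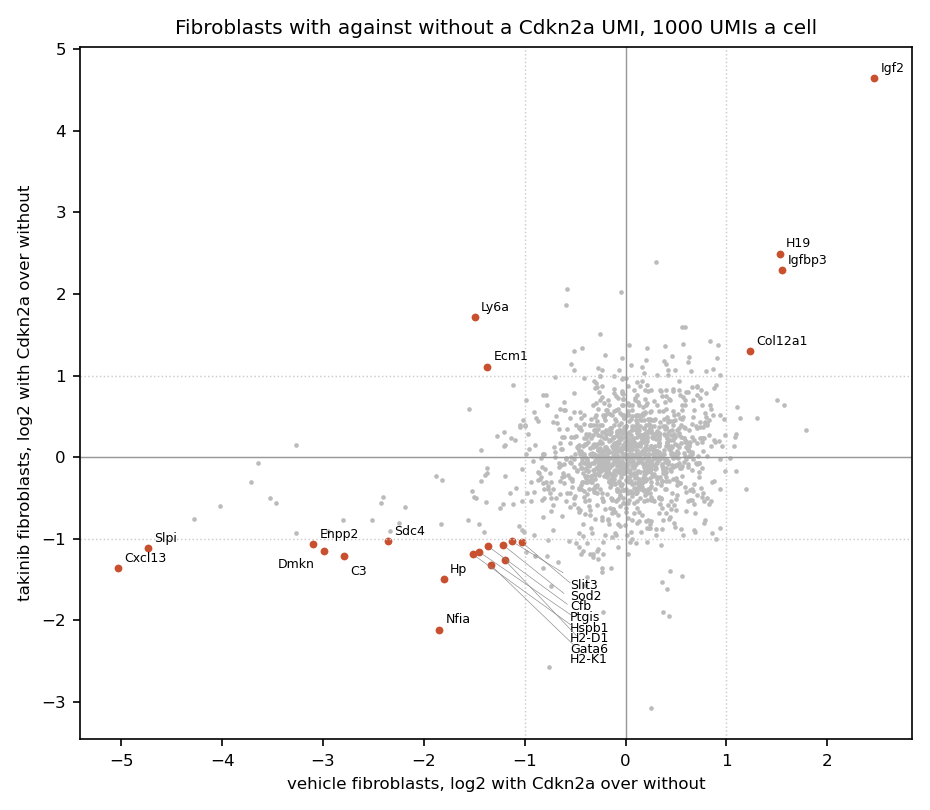
Each point is 1 of 1350 genes, placed by its log2 ratio between fibroblasts with and without Cdkn2a in vehicle (horizontal) and in takinib (vertical) at 1000 UMIs a cell; dotted lines mark 2-fold and red points are past it in both libraries. Igf2, H19, Igfbp3 and Col12a1 are at the upper right, 16 genes at the lower left, and Ecm1 and Ly6a at the upper left.

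Genes of the mesothelium, the sheet that lines the abdominal cavity, moved with this split. At 1000 UMIs a cell a mesothelial UMI was found in 8.44% of vehicle fibroblasts with and 18.9% without Cdkn2a, and in 10% and 35.6% in takinib. Msln, mesothelin, had no UMI with Cdkn2a and 32 without in vehicle, and the mesenchymal factor Osr1 none and 49. At least 3 UMIs of Krt8, Krt18 and Krt19, keratins of epithelium and mesothelium, were held by 0 of 154 vehicle fibroblasts with Cdkn2a and 28 of 322 without, and by 9 of 70 and 31 of 216 in takinib. Among fibroblasts without any mesothelial UMI 46 of 1700 genes were higher and 80 lower in vehicle. The inflammatory and antigen-presenting medians stayed below 0 there too, at -1.93 and -1.53.

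In vehicle Cdkn2a was found in 33.8% of fibroblasts with Pdgfra and 30.9% of those without, and in takinib in 26.0% and 19.4%, with overlapping exact intervals in each library. After thinning to 1000 UMIs the vehicle shares ran the other way, at 10.3% (5.24 to 17.7) and 17.6% (13.9 to 21.9), and the takinib shares 8.33% and 8.88%. Several takinib differences also held among fibroblasts without Cdkn2a, where Igfbp3 was at -4.50, Col8a1 at -4.28 and Thy1 at -2.82 against the vehicle cells.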

How the data were processed

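The deposited values were raw UMI counts per gene and barcode, made by the authors with Cell Ranger. Per the file headers its version was 4 in the vehicle matrix and 6.1.1 in the other. The submitters' processing notes name the mouse build mm10 and list Cell Ranger 2.1.1, bcl2fastq, STAR 2.0.4b, Subread and featureCounts 1.45, with no role given. The vehicle matrix listed 704261 barcodes, down to 0 UMIs, and the takinib matrix 34158, none under 500 UMIs, so the same filters were applied to both. Groups came from the labels, with 1 library each. UMIs of the fibroblasts were summed per library and compared as CPM with a pseudocount of 10 CPM, and a gene counted as different past 2-fold. Poisson limits of 95% were exact, and the limits of a log2 ratio combined opposite bounds of its parts.

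For the Pdgfra and Cdkn2a splits, cells were assigned from all UMIs, drawn down to 1000 UMIs (seed 1) and compared for genes with at least 30 UMIs over both sides. Besides the lists, the text names the 12 genes furthest in each direction. For takinib, a gene furthest up had at least the level of takinib neutrophils, macrophages and epithelium in takinib fibroblasts. A gene furthest down had at least the level of vehicle macrophages, epithelium and endothelium in vehicle fibroblasts, and perivascular cells were not considered. Mitochondrial, ribosomal, haemoglobin and sex-linked genes and unnamed gene models were left out of those 12. The members, the 24 gene lists and the 13 marker lists were chosen with earlier results of these data known, and support nothing as independent evidence. Comparison classes were defined by a few marker UMIs each: Rgs5 for perivascular cells, Pecam1 with Cdh5, Kdr or Egfl7 for endothelium, Epcam with keratins for epithelium, and C1qa, C1qb and C1qc for macrophages. Doublets were kept in the main comparison. Scrublet in scanpy 1.11.5, used in an alternative, marked 314 vehicle barcodes, 3 of them fibroblasts. In takinib its automatic threshold marked 0.00373%, so the highest scores were removed instead, 1621 barcodes, 23 of them fibroblasts. Python 3.11.15, numpy 2.4.6, scipy 1.17.1, pandas 2.3.3 and matplotlib 3.10.9 were used. The ratio and thinning steps were tested on simulated data. Settings tried were pseudocounts, count minimums, centring, thinning, other depth and mitochondrial filters, doublet removal, subsets of members by other cells' RNA or by origin, another seed, and leaving out each gene's highest cell. Some genes that the naming rule covers are not reported here.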

Additional observations from a re-analysis of the deposited data

Results flagged for a closer look

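A gene was set apart here where its split ran in opposite directions past 2-fold in the vehicle and the takinib fibroblasts. The difference between the libraries was not tested, since each group has 1 library. Penk, which encodes the opioid precursor proenkephalin, had a log2 ratio of 1.44 between vehicle fibroblasts with and without Pdgfra and of -1.41 in takinib, where only 22 and 19 UMIs were behind it. Ecm1, a secreted matrix protein, had -1.37 between vehicle fibroblasts with and without Cdkn2a (169 and 453 CPM) and 1.11 in takinib (371 and 167 CPM). Ly6a, the surface protein Sca-1, had -1.50 in vehicle (253 and 733 CPM) and 1.72 in takinib (1043 and 310 CPM).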

How the results depend on the processing

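No paired analysis was possible because each group has 1 library. The share of fibroblasts kept its direction, with log2 ratios of -1.45 with deeper barcodes, -2.77 with thinned barcodes and -1.72 without Ptprc cells against -2.18. Genes higher in takinib numbered 414 of 7472 compared, and 162 of 7472 with a pseudocount of 50 CPM. They were 241 of 2590 with at least 200 UMIs and 104 of 1495 at 1000 UMIs a cell. In cells low in immune RNA they were 255 of 5242, and without mesothelial UMIs 258 of 3875. Genes lower numbered 521 of 7472, and 187 of 7472, 234 of 2590 and 209 of 1495 under the first 3 of these settings. Where the number of genes compared differs, the counts are to be read as shares of it. Centring on the median gene gave 452 higher and 458 lower. Cxcl10, lower at -1.35, was at 0.18 in cells with Pdgfra, 0.69 against female and 0.15 against male vehicle cells, and without mesothelial UMIs Cd74 was at 0.0514 and H2-Eb1 at 0.27. The collagen, matrix, NF-kB, immediate-early, hypoxia and cell-cycle medians kept their sign under every setting that gave one, 17 for the cell cycle and 19 for the others. The cell-cycle median stays a description, since most of its higher genes passed the minimum through takinib alone. Part of the NF-kB genes did so too.

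For Pdgfra in vehicle 33 of 2570 genes were higher, and 12 of 7701 with all UMIs and 3 of 649 with at least 100 UMIs. Without keratin-bearing cells 20 of 1812 were higher, and with another seed 16 of 2567. Lower in vehicle were 23 of 2570, and 56 of 7701 with all UMIs and 37 of 2570 with a pseudocount of 1. In cells of at least 3000 UMIs 13 of 1339 were lower, and with at least 100 UMIs 1 of 649. Mbd3 went from -1.23 to 0.00166 with all UMIs and Impad1 from 1.23 to -0.0758 with another seed. In takinib 63 of 1449 were higher, and 8 of 385 with at least 100 UMIs and 28 of 419 without mesothelial UMIs. There 26 of 1449 were lower, and 73 of 9012 with all UMIs. With at least 100 UMIs 2 of 385 were lower, and without mesothelial UMIs 14 of 419.

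For Cdkn2a in vehicle 79 of 2570 were higher, and 18 of 649 with at least 100 UMIs. Without mesothelial UMIs 46 of 1700 were higher, and in female cells 13 of 395. In vehicle 138 of 2570 were lower, and 270 of 7701 with all UMIs and 76 of 1339 in cells of at least 3000 UMIs. With at least 100 UMIs 33 of 649 were lower, and without keratin-bearing cells 86 of 1812. Without mesothelial UMIs 80 of 1700 were lower, in female cells 17 of 395 and in male cells 56 of 808. In takinib 48 of 1449 were higher, and 123 of 9012 with all UMIs and 3 of 386 with at least 100 UMIs. Without keratin-bearing cells 25 of 904 were higher there, and without mesothelial UMIs 23 of 420. Lower in takinib were 77 of 1449, and 15 of 386 with at least 100 UMIs and 44 of 420 without mesothelial UMIs. The cause of these moves was not tested, except that fewer genes or cells enter where a minimum or subset is set. The settings by mesothelial UMIs, by origin within the Cdkn2a split, by male origin and by each gene's highest cell were chosen after seeing the data. In vehicle 649 of the 2570 genes compared in the splits had at least 100 UMIs.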
